A study of Mus musculus with 6 samples.

Results

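The genes described here encode the ATP-binding cassette (ABC) transporters of the mouse, the family that holds the drug efflux pumps. Members were the genes named by a single-symbol probe set (a group of probes read as 1 value) with a symbol of subfamilies Abca to Abcg. There were 45 of them among the 18193 genes of the array. They had 92 probe sets, and 26 of the genes had more than 1. Each gene was read from its probe set with the highest mean signal over the 6 arrays. No measured difference entered this choice.

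Bone marrow cells of 3 groups were compared, with 2 arrays each. BCR/ABL imatinib cells carried BCR/ABL, the fusion kinase of chronic myeloid leukaemia, and came from leukaemic mice given imatinib, an inhibitor of that kinase. BCR/ABL cells carried the same gene and came from untreated leukaemic mice. Vector cells carried only the empty GFP vector. All 3 groups were sorted as GFP+, lineage-negative, c-Kit+ and Sca-1+, the surface pattern of haematopoietic stem and early progenitor cells. Cells were taken from the long bones. The sources used here give neither strain and age nor the dose and duration of imatinib. Separate mice are not stated for the paired arrays of a group, so p-values reflect only how far these arrays vary, possibly for technical reasons.

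ABC transporters bind ATP on paired nucleotide-binding domains and use its hydrolysis to move lipids, conjugates, peptides or drugs across a membrane. A few export many unrelated drugs: Abcb1a and Abcb1b (P-glycoprotein), Abcc1 and its relatives (the multidrug resistance proteins), and Abcg2 (breast cancer resistance protein). In haematopoietic stem cells Abcg2 is known for the export of a fluorescent dye, which marks the side population. The E and F subfamilies have the ATP-binding domains without membrane-spanning ones and act on ribosomes rather than as transporters.

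Expression is given in 2 ways. Intensity is the deposited linear signal, scaled by the authors to a common mean. The log2 level is log2(intensity + 16) after quantile normalization between arrays, which cannot lie below 4, and a log2 difference is the fitted difference between 2 group means of it. Different probe sets respond differently, so levels were compared between groups and not between genes. In mixtures of cells, fewer cells of a type and less RNA per cell cannot be told apart. A member was marked near background where its highest group mean was under 100 intensity units. This held for 18 of the 45 members, and the other 27 lay above the limit. Just inside the limit were Abca9, Abcg4 and Abcc2, with highest group means of 51.3, 80.5 and 81.9, and just outside it Abcb9, Abca4, Abcc3 and Abca5, with 110.5, 115.9, 134.2 and 169.8. Subfamily A had 7 of 14 members near background, B had 2 of 8, C had 6 of 10, G had 3 of 6, and D, E and F had 0 of 7.

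**Figure D1:**
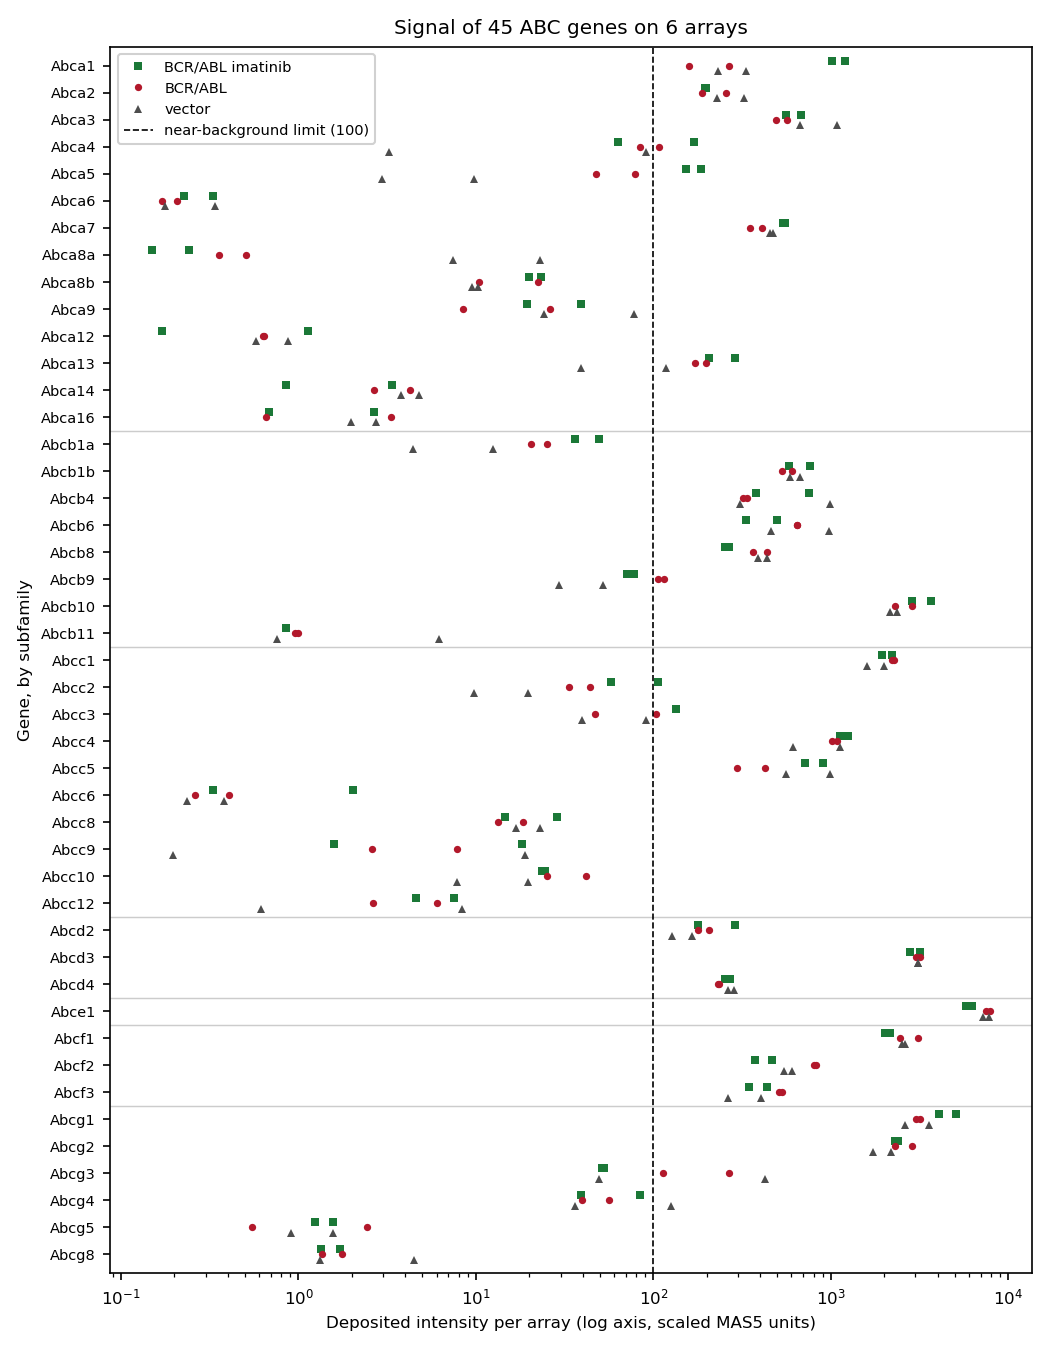
Deposited intensity (log axis) of the 45 ABC genes by subfamily, with 1 symbol per array: squares for BCR/ABL imatinib, circles for BCR/ABL and triangles for vector. The dashed line is the near-background limit of 100. Abca1 stands out on both BCR/ABL imatinib arrays at 1207 and 1021, against 159.4 and 266.3 on the BCR/ABL arrays.

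The libraries were not alike. Replicate arrays correlated at 0.985 in BCR/ABL imatinib, 0.99 in BCR/ABL and 0.971 in vector cells over all probe sets tested. The summed intensity of 9 measured B cell markers was 646 and 1764 on the BCR/ABL imatinib arrays, 1275 and 2320 on the BCR/ABL arrays, but 21820 and 4645 on vector arrays 1 and 2. Of these markers Pax5, a B cell transcription factor, lay under 100 in every group. The 10 mast cell and basophil markers summed to 66050 and 56180 in BCR/ABL imatinib cells, 43030 and 42510 in BCR/ABL cells, and 16600 and 11340 in vector cells. The 8 megakaryocyte markers summed to 7129 and 6816 in BCR/ABL imatinib cells, 4071 and 3445 in BCR/ABL cells, and 1896 and 2083 in vector cells. All 8 measured stem and progenitor markers of the sort lay above the limit in each group, but they did not move together. For imatinib against BCR/ABL 6 had a positive log2 difference and 2 a negative one, from -0.88 to 1.36. For BCR/ABL against vector 4 were positive and 4 negative, from -1.08 to 2.81. Kit, which encodes the c-Kit receptor used to sort the cells, measured 2659 and 2602 on the BCR/ABL imatinib arrays, 1332 and 1116 on the BCR/ABL arrays and 1637 and 2125 on the vector arrays.

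No ABC probe set passed an adjusted p of 0.05 in any of the 3 comparisons, by limma with Benjamini-Hochberg adjustment over all 35877 probe sets. Among all probe sets 22 passed in BCR/ABL against vector (0.0613%), 0 in BCR/ABL imatinib against BCR/ABL (0.0%) and 16 in BCR/ABL imatinib against vector (0.0446%). The smallest adjusted p of a member was 0.230, 0.108 and 0.122 in these comparisons. In 2 of the settings tried, a few members did pass for imatinib, as given beside them. All 3 comparisons share arrays, so they are not independent of each other.

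Counts at an unadjusted p under 0.05 were set against those of all genes. For BCR/ABL against vector, 6 of 45 members were higher (13.3%, all genes 7.16%) and 3 lower (6.67%, all genes 5.55%). With imatinib against BCR/ABL, 3 members were higher (6.67%, all genes 7.88%) and 4 lower (8.89%, all genes 9.13%). With imatinib against vector, 7 members were higher (15.6%, all genes 9.0%) and 4 lower (8.89%, all genes 7.7%). The median log2 difference of the members was 0.01, -0.01 and 0.01 in the 3 comparisons, against 0.01, -0.01 and -0.001 over all genes. By this median the 45 members as a whole did not lie to one side, with 18 of them near background. The 27 members above that limit had medians of 0.10, -0.01 and 0.17. The limit was set on the highest group mean, so a single group could bring a member in. Vector means of Abca5, Abca4, Abca13, Abcb9 and Abcc3 were under it, at 6.38, 47.0, 78.8, 40.6 and 65.3. These genes passed only by a group carrying BCR/ABL, and no member passed by vector alone. How far this choice raised the medians against vector was not tested. Of the 13 efflux pumps, 9, 9 and 11 had a positive difference and 4, 4 and 2 a negative one. The pump medians were 0.30, 0.18 and 0.22. Among all 18193 genes, 9540, 8922 and 9068 had a positive difference.

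Whether the 2 arrays of one group lay wholly above or below those of the other was also counted, on the log2 levels. BCR/ABL lay above vector in 14 members (31.1%, all genes 23.9%) and below it in 5 (11.1%, all genes 20.1%). BCR/ABL imatinib lay above BCR/ABL in 8 members (17.8%, all genes 24.8%) and below it in 14 (31.1%, all genes 26.7%). BCR/ABL imatinib lay above vector in 13 members (28.9%, all genes 21.9%) and below it in 11 (24.4%, all genes 22.3%). In 17 of the 135 pairs of a member and a comparison, the deposited intensities gave another order than the normalized levels.

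**Figure D2:**
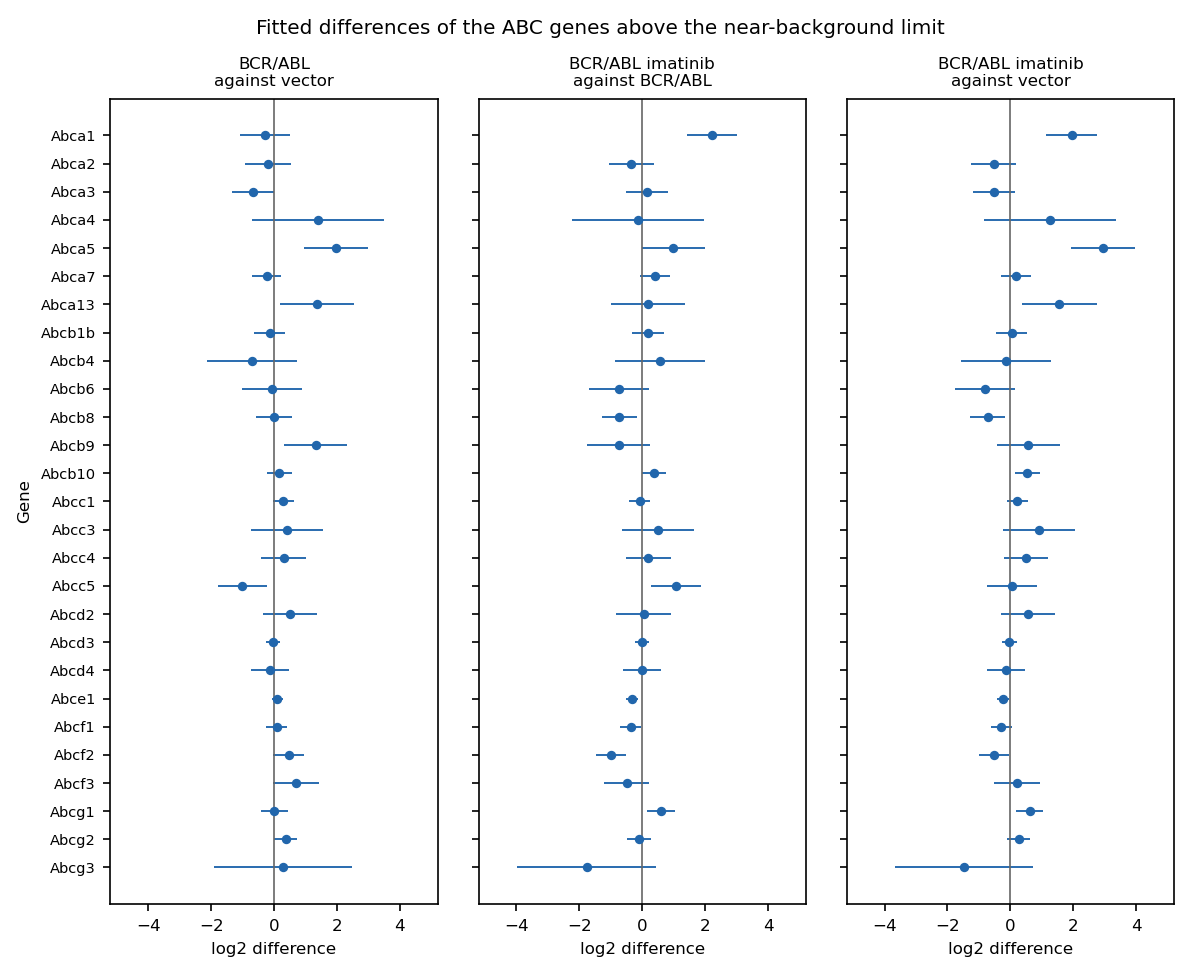
Fitted log2 differences (points) with 95% intervals (lines) for the 27 members above the near-background limit in the 3 comparisons. Abca1 lies at 2.23 for BCR/ABL imatinib against BCR/ABL and Abca5 at 1.96 for BCR/ABL against vector. In the latter comparison the pump genes Abcg2, Abcc1, Abcb1b and Abcc5 lie at 0.37, 0.30, -0.14 and -1.01.

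The efflux pumps come first. Of 13 pump genes, 7 lay above the near-background limit. Abcg2 had log2 levels of 11.23 and 11.20 in BCR/ABL imatinib cells, 11.46 and 11.18 in BCR/ABL cells, and 10.80 and 11.10 in vector cells. The BCR/ABL arrays lay above the vector arrays, by a log2 difference of 0.37 (95% interval 0.00 to 0.74, adjusted p = 0.435). Imatinib against BCR/ABL gave -0.10 (95% interval -0.47 to 0.27), with overlapping arrays. A log2 difference of 1 in Abcg2 lies outside both intervals.

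Abcc1, which exports glutathione conjugates and leukotriene C4, had log2 levels of 11.13 and 10.96 in BCR/ABL imatinib cells, 11.14 and 11.11 in BCR/ABL cells, and 10.68 and 10.98 in vector cells. Its log2 difference was 0.30 for BCR/ABL against vector (SE 0.14, adjusted p = 0.483) and -0.08 for imatinib against BCR/ABL (95% interval -0.42 to 0.26). The second Abcc1 probe set above the limit gave 0.72 and -0.15. Both BCR/ABL arrays were above both vector arrays, while the arrays with and without imatinib overlapped.

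Abcb1a and Abcb1b are the 2 mouse genes of P-glycoprotein, which lie next to each other and to Abcb4 on chromosome 5 in the RefSeq gene order. Abcb1b had log2 levels of 9.22 and 9.56 with imatinib, 9.30 and 9.12 in BCR/ABL cells, and 9.24 and 9.46 in vector cells. All 3 groups overlapped. Its log2 difference was -0.14 for BCR/ABL against vector (95% interval -0.64 to 0.36) and 0.18 for imatinib against BCR/ABL (95% interval -0.32 to 0.68), signs that turned to 0.07 and -0.10 with array medians centred. Abcb1a was near background, at intensities of 49.1 and 36.3 with imatinib, 25.1 and 20.3 in BCR/ABL cells, and 4.40 and 12.4 in vector cells. The vector arrays lay below all others, while the log2 levels of the other groups overlapped (5.97 and 5.49 with imatinib, 5.60 and 5.26 in BCR/ABL cells). Its log2 difference was 0.82 for BCR/ABL against vector (SE 0.32, adjusted p = 0.418) and 1.12 for imatinib against vector (adjusted p = 0.244).

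Abcb4, which moves phosphatidylcholine into bile, had log2 levels of 9.58 and 8.51 with imatinib, 8.53 and 8.45 in BCR/ABL cells, and 9.99 and 8.39 in vector cells. Its highest value was on vector array 1, the array with the highest B cell marker sum (21820); the part of B cells in it was not tested. The log2 difference for BCR/ABL against vector was -0.70 (SE 0.58, adjusted p = 0.687) with that array and 0.10 without it.

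**Figure D3:**
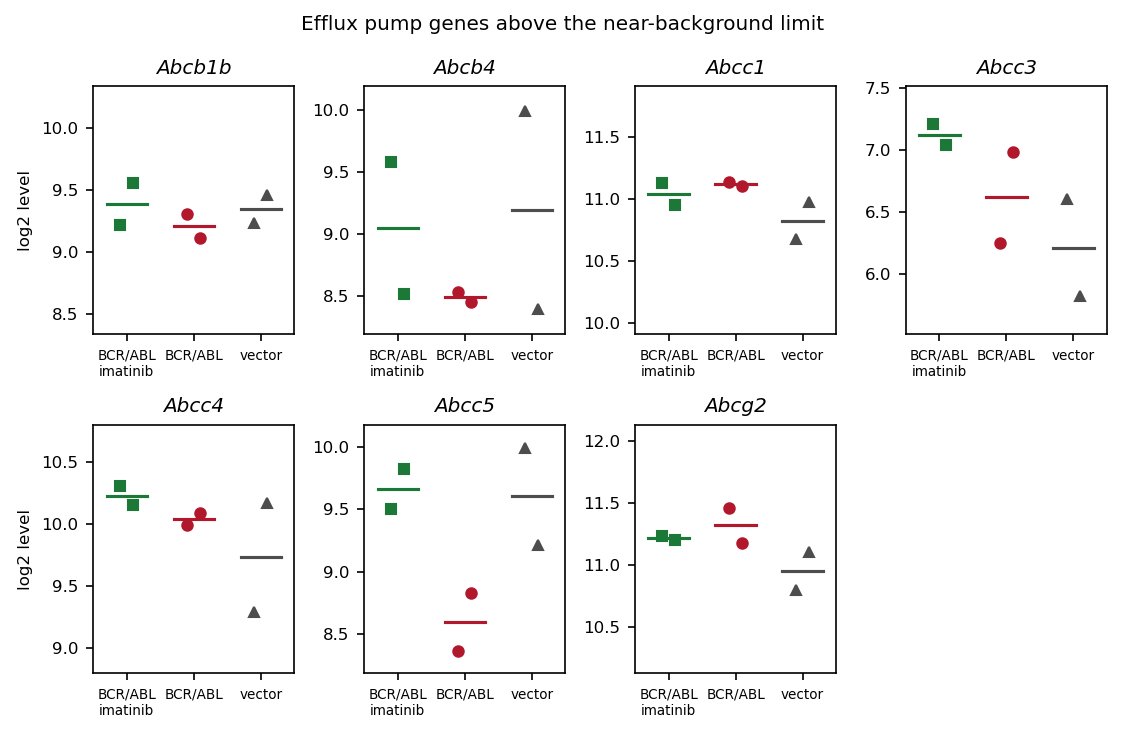
Log2 levels of the 7 efflux pump genes above the near-background limit, 1 point per array, with bars at the group means, from left to right BCR/ABL imatinib, BCR/ABL and vector. The groups overlap for Abcb1b and Abcb4, while the BCR/ABL arrays of Abcc5 at 8.36 and 8.83 lie below all others.

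Among the other multidrug resistance proteins, Abcc4, an exporter of cyclic nucleotides and prostaglandins, had log2 levels of 10.31 and 10.15 with imatinib, 9.996 and 10.09 in BCR/ABL cells, and 9.29 and 10.17 in vector cells. The vector arrays were far apart, and BCR/ABL against vector gave a log2 difference of 0.31 (SE 0.29), or -0.13 without vector array 1. Abcc3, an exporter of glucuronides and bile salts, had 7.21 and 7.04 with imatinib, 6.25 and 6.98 in BCR/ABL cells, and 6.60 and 5.82 in vector cells. The imatinib arrays lay above both other groups, with log2 differences of 0.51 against BCR/ABL (SE 0.46, adjusted p = 0.697) and 0.91 against vector (adjusted p = 0.455).

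Abcc5, an exporter of nucleotide analogues and cyclic nucleotides, was the pump with the largest fitted difference of those above the limit. It had log2 levels of 9.51 and 9.82 with imatinib, 8.36 and 8.83 in BCR/ABL cells, and 9.998 and 9.21 in vector cells. The BCR/ABL arrays lay below all 4 others. The log2 difference was 1.07 for imatinib against BCR/ABL (SE 0.32, adjusted p = 0.220), -1.01 for BCR/ABL against vector (adjusted p = 0.354) and 0.06 for imatinib against vector. The gene has 10 probe sets, and 5 besides the chosen one lay above the near-background limit. All 5 were higher with imatinib than in BCR/ABL cells, by 0.31 to 1.43. They were also all higher with imatinib than in vector cells, by 0.35 to 1.12, against 0.06 in the chosen probe set. For BCR/ABL against vector only 2 of the 5 had the sign of the chosen probe set, with differences of -0.74 to 0.67, so the probe sets disagreed in that comparison.

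**Figure D4:**
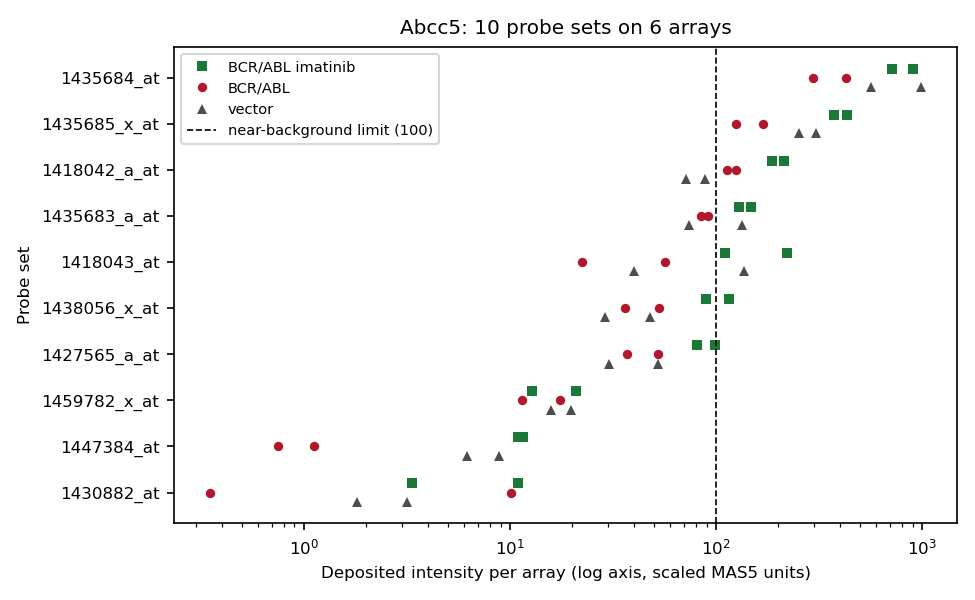
Deposited intensity (log axis) of the 10 Abcc5 probe sets on the 6 arrays, with squares for BCR/ABL imatinib, circles for BCR/ABL and triangles for vector, and the near-background limit dashed. In the top probe set BCR/ABL (295.8 and 427.1) lies below vector (992.4 and 561.9), whereas in another BCR/ABL (125.1 and 113.4) lies above vector (71.7 and 88.4).

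The remaining pumps were near background. Abcc2, an exporter of bilirubin glucuronides, had intensities of 106.4 and 57.5 with imatinib, 44.0 and 33.4 in BCR/ABL cells, and 9.69 and 19.7 in vector cells. Vector lay below the others, and the log2 levels of those overlapped. The log2 difference was 1.49 for imatinib against vector (SE 0.45, adjusted p = 0.262) and 1.01 for BCR/ABL against vector. Abcc10, a broad drug exporter, had 24.4 and 23.6 with imatinib, 41.7 and 25.2 in BCR/ABL cells, and 7.84 and 19.7 in vector cells, and its 2 probe sets gave opposite signs in each comparison. Abcb11, the bile salt export pump, had 0.845 and 0.850 in BCR/ABL imatinib cells, 0.954 and 0.996 in BCR/ABL cells, and 6.23 and 0.753 in vector cells. Abcc6, whose loss causes ectopic calcification, had 0.329 and 2.03 in BCR/ABL imatinib cells, 0.404 and 0.259 in BCR/ABL cells, and 0.235 and 0.380 in vector cells. Abcc12 had 7.53 and 4.57 in BCR/ABL imatinib cells, 6.07 and 2.62 in BCR/ABL cells, and 0.618 and 8.36 in vector cells. None of the last 3 reached 10 on any array.

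Abca1, which loads cholesterol and phospholipid onto apolipoprotein A1, had the largest difference of the family between imatinib and BCR/ABL. Its intensities were 1207 and 1021 in BCR/ABL imatinib cells, 159.4 and 266.3 in BCR/ABL cells, and 232.7 and 334.9 in vector cells. The log2 levels were 10.26 and 10.005 in BCR/ABL imatinib cells, 7.60 and 8.21 in BCR/ABL cells, and 7.87 and 8.50 in vector cells. Both imatinib arrays lay above the other 4, and the BCR/ABL and vector arrays overlapped. The log2 difference was 2.23 for imatinib against BCR/ABL (SE 0.33, 4.68-fold, adjusted p = 0.108) and 1.94 for imatinib against vector (adjusted p = 0.139). It was -0.28 for BCR/ABL against vector. The threshold was missed here but passed in 2 of the settings tried. With array medians centred, adjusted p was 0.0183 and 0.0343 for these imatinib comparisons, with 1200 and 275 probe sets called in all. Over the brighter probe sets alone it was 0.0396 and 0.0447, with 211 and 181 called. Over 14 alternatives the difference from BCR/ABL ran from 1.92 to 2.53 and its adjusted p from 0.0183 to 0.521, and the adjusted p against vector ran from 0.0343 to 0.388. Its other 2 probe sets stayed under 50, with the same sign. Mast cell and megakaryocyte marker sums were also highest with imatinib (66050 and 56180, and 7129 and 6816), and their part in these values was not tested. Its RefSeq promoter (GRCm38.p6, minus strand, chr4:53159846-53160145) is shown because Abca1 had this largest difference. Capitals here and below mark the motifs searched on both strands, which were the GC box GGGCGG, the E-box CACGTG, the nuclear receptor motif AGGTCA, the FoxO motif GTAAACA, the CCAAT box and the TATA box TATAAA.
Abca1: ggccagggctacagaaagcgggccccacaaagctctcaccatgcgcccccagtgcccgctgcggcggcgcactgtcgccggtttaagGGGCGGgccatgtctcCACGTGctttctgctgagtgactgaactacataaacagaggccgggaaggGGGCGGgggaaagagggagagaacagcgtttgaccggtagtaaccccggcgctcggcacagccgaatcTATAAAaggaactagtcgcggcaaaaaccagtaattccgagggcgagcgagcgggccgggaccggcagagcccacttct
It holds 2 GC boxes, 1 E-box and 1 TATAAA.

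Abca5, a lysosomal member linked to cholesterol export, had the largest difference of the family between BCR/ABL and vector. Its intensities were 153.2 and 186.3 with imatinib, 79.0 and 47.4 in BCR/ABL cells, and 2.96 and 9.80 in vector cells. No groups overlapped. The log2 difference was 1.96 for BCR/ABL against vector (SE 0.41, adjusted p = 0.230), 0.99 for imatinib against BCR/ABL (adjusted p = 0.349) and 2.96 for imatinib against vector (adjusted p = 0.122). The last passed the threshold with array medians centred (adjusted p = 0.0166), where 275 probe sets were called in all. Over 13 alternatives that log2 difference ran from 1.65 to 4.53. The vector level is near the floor of the scale, and the difference between BCR/ABL and vector ran from 0.95 to 3.38 over the alternatives. Mast cell marker sums ran in the same order of groups (16600 and 11340 in vector cells); their part was not tested. In the RefSeq gene order Abca5 ends a run of 5 members on chromosome 11, with Abca8b, Abca8a, Abca9 and Abca6. The other 4 were near background, at 9.498 to 23.2 for Abca8b, 0.150 to 22.9 for Abca8a, 8.49 to 78.2 for Abca9 and 0.170 to 0.336 for Abca6 over the 6 arrays.

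Abca13, a large member of the lipid transporter subfamily, had log2 levels of 8.24 and 7.62 with imatinib, 7.69 and 7.81 in BCR/ABL cells, and 6.93 and 5.81 in vector cells. Vector was lowest, by log2 differences of 1.38 from BCR/ABL (SE 0.48, adjusted p = 0.386) and 1.56 from imatinib (adjusted p = 0.269). A second probe set above the limit gave 2.09 and 2.22, but passed it only through the groups with BCR/ABL (38.5 and 26.8 on the vector arrays). Abca3, which fills lamellar bodies with surfactant lipid in lung, had 9.42 and 9.10 with imatinib, 9.01 and 9.20 in BCR/ABL cells, and 10.13 and 9.45 in vector cells, a log2 difference of -0.68 for BCR/ABL against vector (adjusted p = 0.427). Abca4, the retinoid flippase of photoreceptors, had 6.27 and 7.35 with imatinib, 6.88 and 7.03 in BCR/ABL cells, and 4.30 and 6.79 in vector cells, so its log2 difference of 1.41 for BCR/ABL against vector was 0.17 without vector array 1. Vector thus lay below the others for Abca13 and, on the log2 levels, above them for Abca3. In the deposited intensities of Abca3, imatinib array 1 (676.6) lay above vector array 2 (669.3).

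Of the other members of subfamily A, Abca7, which acts in phagocytosis and lipid export, lay between 351.2 and 552.4 on the 6 arrays, with a log2 difference of 0.41 for imatinib against BCR/ABL (adjusted p = 0.404). Abca2, of myelin and lysosomal lipid handling, lay between 187.2 and 322.7, with -0.34 for the same comparison (adjusted p = 0.673). Abca12, a skin lipid transporter, Abca14 and Abca16 stayed at or below 4.77. In subfamily A as a whole 8 members had a positive and 6 a negative difference for imatinib against BCR/ABL, with a median of 0.01.

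Subfamily B beyond the pumps holds mitochondrial and lysosomal transporters. Abcb8, of the inner mitochondrial membrane, had log2 levels of 8.05 and 7.99 with imatinib, 8.63 and 8.87 in BCR/ABL cells, and 8.63 and 8.86 in vector cells. Imatinib lay below both other groups, by -0.73 against BCR/ABL (SE 0.23, adjusted p = 0.239) and -0.73 against vector (adjusted p = 0.276), while BCR/ABL and vector differed by 0.00 (95% interval -0.56 to 0.56). Abcb10, a mitochondrial partner of haem synthesis, had 11.86 and 11.53 with imatinib, 11.48 and 11.16 in BCR/ABL cells, and 11.22 and 11.09 in vector cells, a log2 difference of 0.54 for imatinib against vector (adjusted p = 0.257). Mitochondrial members thus lay on both sides.

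Abcb9, a lysosomal peptide transporter, had log2 levels of 6.52 and 6.22 with imatinib, 7.23 and 7.01 in BCR/ABL cells, and 5.47 and 6.13 in vector cells. BCR/ABL was highest and no groups overlapped. Its log2 difference was 1.32 for BCR/ABL against vector (SE 0.41, adjusted p = 0.347) and -0.75 for imatinib against BCR/ABL (adjusted p = 0.476), with the same signs in all 3 probe sets. Abcb6, a porphyrin transporter, measured 495.5 and 334.9 with imatinib, 643.4 and 645.9 in BCR/ABL cells, and 977.6 and 463.0 in vector cells. Its difference for BCR/ABL against vector was -0.08, or 0.44 without vector array 1, which again had its highest value.

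In subfamily C, Abcc8 and Abcc9, the sulphonylurea receptors that regulate potassium channels, were near background at 13.3 to 28.7 and 0.196 to 18.9 over the 6 arrays. Subfamily D imports fatty acids into peroxisomes and, for Abcd4, exports cobalamin from lysosomes. Abcd3 lay between 2815 and 3204 on all arrays, with log2 differences of -0.02 (95% interval -0.25 to 0.20) and -0.01 (95% interval -0.24 to 0.22) for BCR/ABL against vector and imatinib against BCR/ABL. Abcd4 lay between 232.6 and 285.2, and Abcd2 between 127.4 and 287.0. For Abcd2 the log2 difference was 0.51 for BCR/ABL against vector (adjusted p = 0.631), and its other probe set above the limit gave -0.15.

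All 4 genes of subfamilies E and F lay lower with imatinib than in BCR/ABL cells, without passing the test. Abce1 splits ribosomes after translation ends, Abcf1 takes part in initiation with eIF2, and the roles of Abcf2 and Abcf3 are less well known. Their fitted differences for imatinib against BCR/ABL were all below 0, at -0.33, -0.37, -0.99 and -0.49, with no overlap between the arrays in any of the 4 genes (all genes lower without overlap, 26.7%). The signs were the same with array medians centred and in the deposited values. Relative to the all-gene median after centring, which was -0.27, they were -0.41, -0.45, -0.99 and -0.46. The 9 other probe sets above the limit that name these genes were lower with imatinib too. The probe sets used for Abce1 and Abcf1, and that of Abcc2 above, carry the suffix s_at, which marks probes shared by more than 1 transcript.

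Abce1 had log2 levels of 12.54 and 12.66 with imatinib, 12.92 and 12.95 in BCR/ABL cells, and 12.78 and 12.89 in vector cells, for an adjusted p of 0.147 against BCR/ABL and 0.285 against vector. Abcf2 had 8.89 and 8.51 with imatinib, 9.68 and 9.71 in BCR/ABL cells, and 9.28 and 9.16 in vector cells. Its order was imatinib, vector, BCR/ABL from low to high, with no overlap, and its adjusted p against BCR/ABL was 0.131. With array medians centred, Abce1 (adjusted p = 0.0367) and Abcf2 (0.0331) passed the threshold for imatinib against BCR/ABL. That setting called 1200 probe sets in all, against 0 in the main setting, and put the all-gene median at -0.27. Over 14 alternatives the log2 differences ran from -0.68 to -0.27 for Abce1 and from -1.26 to -0.80 for Abcf2. Abcf1 had 11.09 and 11.01 with imatinib, 11.25 and 11.60 in BCR/ABL cells, and 11.31 and 11.36 in vector cells (adjusted p = 0.293 against BCR/ABL). Abcf3 had 8.48 and 8.74 with imatinib, 9.07 and 9.12 in BCR/ABL cells, and 8.04 and 8.76 in vector cells, so its imatinib and vector arrays overlapped. For BCR/ABL against vector the 4 differences were 0.10, 0.09, 0.47 and 0.70.

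**Figure D5:**
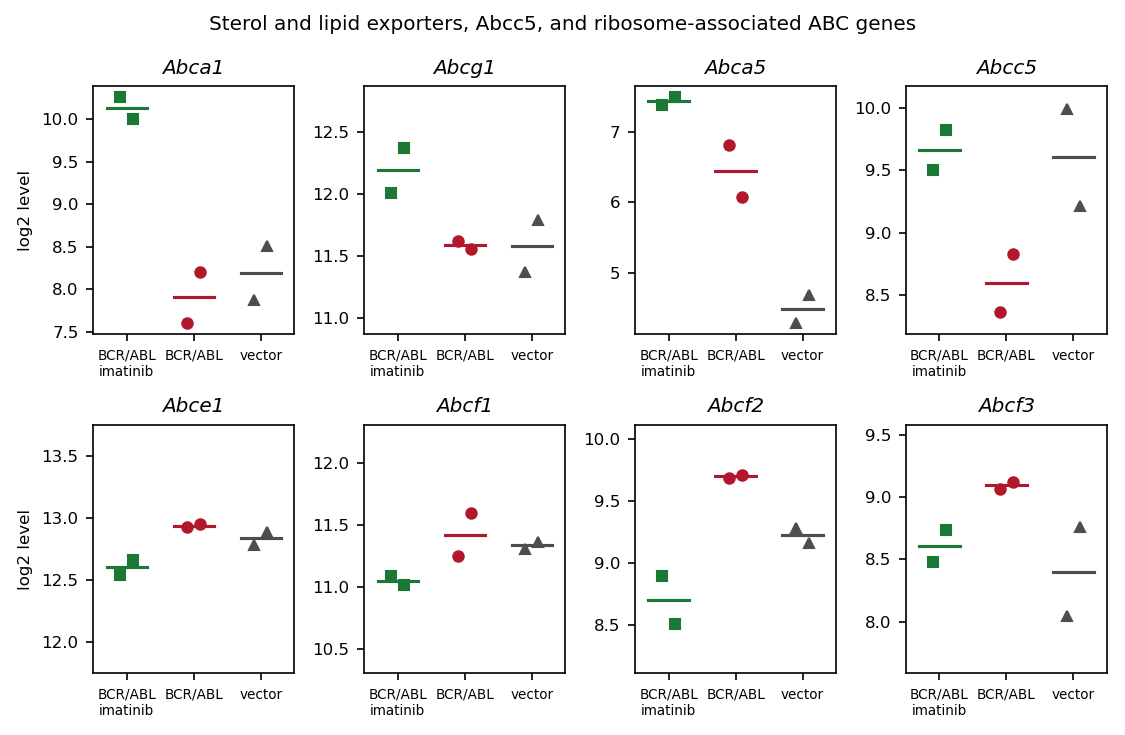
Log2 levels of Abca1, Abcg1, Abca5 and Abcc5 (top) and of Abce1, Abcf1, Abcf2 and Abcf3 (bottom), 1 point per array with bars at the group means, from left to right BCR/ABL imatinib, BCR/ABL and vector; each panel has its own axis. The imatinib points lie above the BCR/ABL points in all top panels and below them in all bottom panels.

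Promoters of these 4 genes are shown because the genes lay on the same side with imatinib. They are the RefSeq windows on GRCm38.p6 of Abce1 (minus strand, chr8:79711691-79711990), Abcf1 (minus strand, chr17:35969701-35970000), the first of 2 Abcf2 windows (minus strand, chr5:24577418-24577717) and Abcf3 (plus strand, chr16:20548353-20548652).
Abce1: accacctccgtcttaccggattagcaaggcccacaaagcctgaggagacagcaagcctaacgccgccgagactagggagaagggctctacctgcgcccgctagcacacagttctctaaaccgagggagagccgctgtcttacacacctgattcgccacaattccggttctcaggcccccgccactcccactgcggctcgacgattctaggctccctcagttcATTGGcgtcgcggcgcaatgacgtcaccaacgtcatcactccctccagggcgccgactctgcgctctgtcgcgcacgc
Abcf1: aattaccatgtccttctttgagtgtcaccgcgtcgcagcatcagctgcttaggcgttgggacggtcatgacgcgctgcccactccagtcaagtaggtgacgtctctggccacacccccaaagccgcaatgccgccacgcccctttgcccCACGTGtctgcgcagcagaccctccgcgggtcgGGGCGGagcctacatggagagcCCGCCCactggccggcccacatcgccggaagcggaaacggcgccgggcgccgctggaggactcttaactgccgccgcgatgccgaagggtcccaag
Abcf2: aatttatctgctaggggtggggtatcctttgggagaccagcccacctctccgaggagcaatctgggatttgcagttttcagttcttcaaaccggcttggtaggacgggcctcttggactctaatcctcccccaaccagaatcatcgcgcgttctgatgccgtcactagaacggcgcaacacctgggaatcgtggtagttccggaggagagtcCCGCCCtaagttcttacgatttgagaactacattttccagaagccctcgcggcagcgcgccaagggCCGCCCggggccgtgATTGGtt
Abcf3: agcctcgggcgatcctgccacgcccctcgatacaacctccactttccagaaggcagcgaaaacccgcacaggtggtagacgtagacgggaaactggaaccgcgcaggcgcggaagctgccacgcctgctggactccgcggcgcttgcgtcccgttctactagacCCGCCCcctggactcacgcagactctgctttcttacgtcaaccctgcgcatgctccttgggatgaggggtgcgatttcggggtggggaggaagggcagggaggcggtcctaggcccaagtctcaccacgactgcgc
No motif of the 6 was shared by all 4 windows. Abce1 has 1 CCAAT, Abcf1 has 2 GC boxes and 1 E-box, Abcf2 has 2 GC boxes and 1 CCAAT, and Abcf3 has 1 GC box.

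Other genes of ribosome recycling and initiation, 9 of them measured, had negative log2 differences in 8 cases for imatinib against BCR/ABL, with a median of -0.21 against -0.01 over all genes. No gene of this list passed the threshold for imatinib against BCR/ABL, nor did any probe set tested. Gspt1, the release factor eRF3, measured 1686 and 1845 with imatinib and 3103 and 3421 in BCR/ABL cells, a log2 difference of -0.85 (SE 0.11, adjusted p = 0.108). Pelo and Hbs1l, which rescue stalled ribosomes together, gave -0.95 (adjusted p = 0.193) and -0.57 (adjusted p = 0.182). Kit, mast cell and megakaryocyte markers differed between the same groups, as given above, and their part was not tested.

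In subfamily G, Abcg1 moves cholesterol to high-density lipoprotein. It had log2 levels of 12.01 and 12.36 with imatinib, 11.62 and 11.56 in BCR/ABL cells, and 11.37 and 11.78 in vector cells. Imatinib lay above both other groups, by 0.60 against BCR/ABL (SE 0.18, adjusted p = 0.211) and 0.61 against vector (adjusted p = 0.251). BCR/ABL and vector overlapped, with a difference of 0.01 (95% interval -0.42 to 0.44). Its second probe set above the limit gave 0.75 for imatinib against BCR/ABL and 0.43 for imatinib against vector, but -0.33 for BCR/ABL against vector, where the probe sets disagreed in sign.

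Abcg3, a rodent relative of Abcg2, measured 52.4 and 51.5 with imatinib, 112.9 and 266.5 in BCR/ABL cells, and 427.7 and 49.6 in vector cells. Vector array 1 again had the highest value, and the difference for BCR/ABL against vector was 0.29 (SE 0.90) with it and 1.64 without it. Imatinib against BCR/ABL gave -1.76 (adjusted p = 0.446). Abcg4 was near background at 36.0 to 125.0. Abcg5 and Abcg8, partners in sterol export from gut and liver that neighbour each other on chromosome 17, stayed at 0.550 to 2.44 and 1.32 to 4.47.

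Genes that act with these transporters, in lists of related pathways, gave 0 called genes in all 3 comparisons (limma, adjusted p under 0.05). Over all probe sets the shares called were 0.0613%, 0.0% and 0.0446%, so a count of 0 says little about these lists. Of 12 measured genes of liver X receptor and sterol efflux, 6 had a positive and 6 a negative difference for imatinib against BCR/ABL, with 2 higher (all genes 7.88%) and 2 lower (all genes 9.13%) at an unadjusted p under 0.05. Mylip, a liver X receptor target that degrades the LDL receptor, measured 422.7 and 506.8 with imatinib, 118.5 and 143.8 in BCR/ABL cells, and 304.0 and 260.2 in vector cells, a log2 difference of 1.53 for imatinib against BCR/ABL (SE 0.25, adjusted p = 0.117). Apoa1, the apolipoprotein that Abca1 loads, gave -1.43 (adjusted p = 0.278), and Rxra, the partner receptor, gave 1.17 for imatinib against vector (adjusted p = 0.168). Nr1h3, the alpha form of the liver X receptor, named here for its role, was near background. It measured 30.6 and 23.6 with imatinib, 47.0 and 79.0 in BCR/ABL cells, and 35.4 and 40.9 in vector cells. Values of the beta form, Nr1h2, are not given here. For imatinib against BCR/ABL the list did not lie to one side in sign. In 5 of its 12 genes, Mylip among them, imatinib lay above BCR/ABL without overlap (all genes 24.8%). In 2 it lay below (all genes 26.7%). Abca1 and Abcg1, which are not in the list, also lay above BCR/ABL on both imatinib arrays. For imatinib against vector, 9 of the 12 had a positive and 3 a negative difference, with a median of 0.21 against -0.001 over all genes. In that comparison 3 were higher (all genes 9.0%) and 0 lower (all genes 7.7%) at an unadjusted p under 0.05.

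Glutathione and conjugation genes, whose products Abcc1 and Abcc2 export, had 17 measured members. With imatinib against BCR/ABL 12 had a positive difference, and the median was 0.35 against -0.01 over all genes. At an unadjusted p under 0.05, 4 of the 17 were higher (all genes 7.88%) and 1 lower (all genes 9.13%). Mgst2, a microsomal glutathione transferase, measured 1723 and 1869 with imatinib, 952.8 and 791.9 in BCR/ABL cells, and 947.2 and 1022 in vector cells, a log2 difference of 1.05 (SE 0.15, adjusted p = 0.108). Mgst1 gave 0.88 (adjusted p = 0.121) and Gsta4 0.63 (adjusted p = 0.229). All 3 lay above both other groups on each imatinib array. Kit and the mast cell and megakaryocyte marker sums were higher on the same arrays (sums of 66050 and 56180, and 7129 and 6816), and their part was not tested.

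Drug carriers outside the ABC family had 15 measured genes, of which 0 were higher (all genes 7.88%) and 3 lower (all genes 9.13%) at an unadjusted p under 0.05 for imatinib against BCR/ABL. Slc19a1, the folate carrier, measured 919.1 and 546.3 with imatinib, 1670 and 1735 in BCR/ABL cells, and 1157 and 1103 in vector cells, a log2 difference of -1.26 (SE 0.26, adjusted p = 0.139). Slc29a2, a nucleoside carrier, gave -1.17 (adjusted p = 0.250). Slco2b1, an organic anion carrier, gave 0.37 (adjusted p = 0.851) in that comparison and 1.10 for imatinib against vector (adjusted p = 0.479). Uptake carriers and pumps thus gave values on both sides.

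Of 15 regulators of pump genes, Foxo1 had the largest difference. It measured 391.4 and 353.9 with imatinib, 163.5 and 141.5 in BCR/ABL cells, and 848.1 and 379.8 in vector cells, for log2 differences of -1.72 for BCR/ABL against vector (SE 0.40, adjusted p = 0.271) and 1.03 for imatinib against BCR/ABL (adjusted p = 0.316). Its highest array was vector array 1. Arnt, the partner of the aryl hydrocarbon receptor, gave 0.60 for imatinib against BCR/ABL (adjusted p = 0.172), and Ahr itself 0.93 for BCR/ABL against vector (adjusted p = 0.388).

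Promoter windows were found for 35 of the 45 members, 42 in all, each from 250 bases before to 50 after a RefSeq start. Among them 21 held a GC box (50%, against 35.7% of 32851 windows), 5 an E-box (11.9% against 7.15%), 7 a nuclear receptor motif (16.7% against 16.3%), 1 a FoxO motif (2.38% against 3.65%), 15 a CCAAT (35.7% against 37.4%) and 7 a TATAAA (16.7% against 13.6%). The 6 motifs do not contain one another, and the single FoxO motif lay in the Abcb1a window. These are matches of letters only.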

How the data were processed

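Total RNA of sorted GFP+ bone marrow stem and progenitor cells was hybridised to 6 Affymetrix arrays, 2 per group. The authors' deposited intensity values came from MAS5 in Affymetrix Expression Console, per the submitters' processing notes, which give no versions; each array has a trimmed mean of 500. The design text names a whole-transcript Mouse Gene ST 1.0 array with random priming, but the deposited probe set names are those of the 3′ Mouse Genome 430 2.0 array. The files name no genome build; no read depth applies; precision is limited by there being 2 arrays per group.

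From the deposited intensities, log2(intensity + 16) was computed and quantile normalized, since array medians ranged from 5.69 to 6.19. Of 45101 probe sets, 64 controls and 9160 without a symbol were left out, and 35877 were tested, 932 of them with several symbols and named for no gene. One limma model (version 3.58.1, R 4.3.3) held all 6 arrays, with a variance trend, 3 residual degrees of freedom, no replicate block and Benjamini-Hochberg adjustment over all probe sets. The steps were tested on simulated data. Each fold change is on the log2(intensity + 16) scale, which understates the change of dim genes. All 45 members matched RefSeq by Entrez identifier, with 0 symbols that differ. All 13 efflux pumps were given with every array, and so were other members above the near-background limit that had one of the 8 smallest p-values of a comparison or a log2 difference of at least 1 without overlap; Abcf3 and Abcb6 were added after their values were seen. Up to 3 genes of a pathway list were named by size of difference. The members and lists were chosen with earlier results of these data known. Alternatives covered the added constant, scaling, dim probe sets, variance prior, replicate block, probe set choice, background limit and each array left out.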

Additional observations from a re-analysis of the deposited data

How the results depend on the processing

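The 3 groups of 2 arrays limit every call, and dim members lie where the added constant shapes the difference. The number of probe sets called for BCR/ABL against vector, 22, was 83 with an added constant of 1, 298 with array medians centred, 132 among probe sets above the 50th percentile of signal, 0 with no variance trend, 42 with a robust variance prior, and 0 to 38 with an array left out. BCR/ABL imatinib against BCR/ABL had 0, which became 3 with the constant of 1, 1200 with medians centred and 211 above the 50th percentile. BCR/ABL imatinib against vector had 16, which became 78 and 3 with constants of 1 and 64, 275 with medians centred, 181 above the 50th percentile, 0 with no trend, 28 with the robust prior, 9 with the replicate block, and 0 to 54 with an array left out. Fewer features were tested above the 50th percentile; otherwise the cause was not tested. Whether equal replicate numbers pair the arrays is not stated, as the labels name nothing shared. Deviations of the same-numbered arrays correlated at -0.08, 0.16 and 0.146, which does not settle it. The block is therefore a value only.

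Members called stayed at 0 for BCR/ABL against vector under the settings run. For BCR/ABL imatinib against BCR/ABL there were 3 with array medians centred (Abca1 2.01, Abce1 -0.68 and Abcf2 -1.26) and 1 above the 50th percentile (Abca1 2.23). Against vector there were 2 with medians centred (Abca1 1.81 and Abca5 2.95) and 1 above the 50th percentile (Abca1 1.94). Among all 35877 probe sets, centring called 1200 for imatinib against BCR/ABL and 275 for imatinib against vector. Above the 50th percentile 211 and 181 were called, among fewer probe sets. Beside these numbers, so few member calls say little about the family. Centring moved the median of all genes by 0.19, -0.27 and -0.09 in the 3 comparisons, and member differences should be read against that. The cause was not tested.

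Signs are given first for the 26 members printed with every array. With array medians centred the sign turned for Abcb1b (0.0687) and Abcb11 (0.0269) in BCR/ABL against vector, for Abca3 (-0.11), Abcb1b (-0.10), Abcc4 (-0.15), Abcc6 (-0.26) and Abcc12 (-0.21) in BCR/ABL imatinib against BCR/ABL, and for Abcb1b (-0.0337), Abcc5 (-0.0119) and Abcc6 (-0.0431) in BCR/ABL imatinib against vector. In the deposited values it turned for Abcb8 (-0.0456) in BCR/ABL against vector and Abca4 (0.12) in BCR/ABL imatinib against BCR/ABL. None of these was called under either setting. The cause was not tested.

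With an array left out, fewer samples remained and, of these 26 members, the sign turned in these ranges. For BCR/ABL against vector they were Abca1 -0.60 to 0.0307, Abcb4 -1.50 to 0.10, Abcb8 -0.12 to 0.12, Abcb11 -0.43 to 0.0355, Abcc4 -0.13 to 0.75, Abcc6 -0.0002 to 0.0148, Abcc12 -0.21 to 0.33, Abcf1 -0.0875 to 0.26, Abcg1 -0.20 to 0.22 and Abcg3 -1.06 to 1.64. For BCR/ABL imatinib against BCR/ABL they were Abca3 -0.0065 to 0.32, Abca4 -0.68 to 0.39, Abca13 -0.13 to 0.49, Abcc1 -0.17 to 0.0074, Abcc6 -0.0056 to 0.11, Abcc12 -0.15 to 0.16 and Abcg2 -0.24 to 0.0366. For BCR/ABL imatinib against vector they were Abcb1b -0.13 to 0.21, Abcb4 -0.94 to 0.66, Abcb11 -0.46 to 0.0026, Abcc5 -0.33 to 0.45 and Abcc12 -0.20 to 0.34.

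The other 19 members turned sign too. Of those above the near-background limit, centring gave Abcb6 0.15 and Abcd3 0.21 for BCR/ABL against vector and Abcd2 -0.0989 for BCR/ABL imatinib against BCR/ABL, and the deposited values gave Abcd3 0.0003 for BCR/ABL against vector and Abcd4 0.16 for BCR/ABL imatinib against BCR/ABL. With an array left out, Abcb6 ran from -0.59 to 0.44 and Abcd3 from -0.0643 to 0.0145 for BCR/ABL against vector, Abcd2 from -0.21 to 0.30, Abcd3 from -0.0828 to 0.0655 and Abcd4 from -0.0302 to 0.0092 for BCR/ABL imatinib against BCR/ABL, and Abcd3 from -0.11 to 0.0406 and Abcf3 from -0.15 to 0.56 for BCR/ABL imatinib against vector. The 12 near-background members among them turned sign in 12 of 36 differences with centring, 5 in the deposited values and 25 with an array left out.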

Other observations

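ABC transporters that carry other symbols gave 0 called genes (limma, adjusted p under 0.05). With 3 genes, and 0.0613%, 0.0% and 0.0446% of all probe sets called in the 3 comparisons, such a count says little. Tap1 and Tap2 form the peptide transporter of antigen presentation. Tap1 gave a log2 difference of -0.39 for BCR/ABL against vector (adjusted p = 0.333), and Tap2 gave 0.44 for BCR/ABL imatinib against BCR/ABL (adjusted p = 0.460). Among 12 measured genes of peptide loading, the immunoproteasome subunit gene Psmb9 gave -0.46 for BCR/ABL against vector (adjusted p = 0.252).

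Of 15 measured peroxisome genes, 7 had a positive and 8 a negative log2 difference for BCR/ABL imatinib against BCR/ABL. Pex10, a peroxisomal import factor, gave -1.12 (adjusted p = 0.172), and Ehhadh, an enzyme of peroxisomal fatty acid oxidation, gave 1.08 for BCR/ABL imatinib against vector (adjusted p = 0.489). Of 13 measured genes of haem and iron-sulphur synthesis, 0 had an unadjusted p under 0.05 in any of the 3 comparisons. The shares of all genes were 7.16% higher and 5.55% lower for BCR/ABL against vector. They were 7.88% and 9.13% for imatinib against BCR/ABL, and 9.0% and 7.7% for imatinib against vector. With 13 genes such a count says little. Their differences for imatinib against vector ran from -0.46 to 1.61. No hypothesis was tested.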
